A study of Mus musculus with 45 samples.

Results

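The growth hormone and IGF axis is described here by 10 genes chosen by name: the growth hormone receptor gene Ghr, the prolactin receptor gene Prlr, the transcription factor gene Stat5b, the feedback genes Socs2 and Cish, the hormone gene Igf1, its carrier gene Igfals, and the binding protein genes Igfbp1, Igfbp2 and Igfbp4. These were 10 of the 39179 genes counted, and 10 of 10 passed the detection filter that left 17464 genes for testing (more than 4 reads in any liver). RNA was sequenced from whole livers of female C57BL/6 mice given sesame oil alone (vehicle) or TCDD in it by gavage, with an interval of 4 days over a period of 28 days, starting at postnatal day 28, with 5 mice in each of the 9 groups and 45 livers in all. The doses were 0.01, 0.03 and 0.1 µg/kg at the low end, then 0.3 and 1 µg/kg, and 3, 10 and 30 µg/kg at the high end. TCDD is a dioxin that activates the aryl hydrocarbon receptor (AhR). All groups, vehicle included, were ovariectomized per the labels, which the study's methods do not mention, and the labels also call the gavage daily while giving the same interval of 4 days. No transgene is named for any group.

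Growth hormone from the pituitary binds its receptor on hepatocytes, the kinase JAK2 bound to that receptor becomes active, and STAT5B is phosphorylated and enters the nucleus. There it drives Igf1 and Igfals, and also Socs2 and Cish, whose proteins switch the receptor signal off again. The liver is the main source of circulating IGF1, which travels bound to binding proteins and to the acid-labile subunit encoded by Igfals. In rodents the timing of growth hormone pulses differs between the sexes, and STAT5B carries that difference into sex-biased expression of liver genes. Prlr belongs to the same receptor family, and its mRNA is abundant in female rodent liver.

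Reads counted on genes ranged from 11767284 to 56509899 per liver (median 17225047), and mitochondrial genes took 5.23 to 8.77% of them. As a check of dose, Cyp1a1, the classical AhR target, was 1.34 to 16.6 CPM in vehicle livers and 6020.0 to 9064 CPM at 30 µg/kg (CPM, read counts scaled to library size with TMM factors), and 6 of 6 AhR check genes rose at that dose. The livers expressed the defining hepatocyte genes, whose summed level over 8 markers was 115000 to 151000 CPM in vehicle and 105000 to 157000 CPM at 30 µg/kg. Markers of other cells were compared as well. At 30 µg/kg 5 of 9 stellate cell, 6 of 8 endothelial, 3 of 9 macrophage, 3 of 8 lymphocyte and 0 of 5 cholangiocyte markers rose and none of these fell, while 4 of 8 hepatocyte markers fell and none rose (adjusted p under 0.05, edgeR). Of all genes 29.6% were called at this dose and 14.1% were called lower. The marker counts are of genes that rose or fell alone, whereas 29.6% covers both directions, so they are not like for like. The macrophage and lymphocyte counts are not read as a result about those cells. No marker in any of the 6 lists was at 0 in every liver of either group. The summed stellate level was 272 to 382 CPM in vehicle livers against 509 to 720.0 CPM at 30 µg/kg, without overlap, and the lymphocyte level was 2.99 to 4.03 against 4.12 to 8.36 CPM, also without overlap. The endothelial level was 152 to 205 against 185 to 295 CPM, the macrophage level 110.0 to 176 against 106 to 290.0 CPM and the cholangiocyte level 52.1 to 77.5 against 53 to 70.2 CPM. The part of these cells in the changes of the axis genes was not tested, and in whole liver fewer cells of a type and less RNA per cell cannot be told apart.

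Promoter windows from 250 bases before to 50 after an annotated start were taken from RefSeq (build GRCm38.p6, 5′ to 3′ on the gene's strand), with 16 windows for 9 of the 10 genes. They were searched on both strands for TTCNNNGAA, the palindrome bound by STAT5, and GCGTG, the core of the AhR response element. Windows are shown for Igfbp2 and Ghr, the genes with the deepest falls, for Prlr, which fell and has a STAT5-type site, and for Cish, which has a pair of them. Capitals mark the matches (CACGC is GCGTG read on the other strand).
Igfbp2, chr1:72824230-72824529, plus strand: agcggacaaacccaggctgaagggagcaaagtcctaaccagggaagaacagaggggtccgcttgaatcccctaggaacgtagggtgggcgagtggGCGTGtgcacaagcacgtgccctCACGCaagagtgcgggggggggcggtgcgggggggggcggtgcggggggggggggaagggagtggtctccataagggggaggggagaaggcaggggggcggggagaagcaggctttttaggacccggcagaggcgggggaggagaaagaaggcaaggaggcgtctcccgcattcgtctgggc
Ghr, chr15:3581793-3582092, minus strand: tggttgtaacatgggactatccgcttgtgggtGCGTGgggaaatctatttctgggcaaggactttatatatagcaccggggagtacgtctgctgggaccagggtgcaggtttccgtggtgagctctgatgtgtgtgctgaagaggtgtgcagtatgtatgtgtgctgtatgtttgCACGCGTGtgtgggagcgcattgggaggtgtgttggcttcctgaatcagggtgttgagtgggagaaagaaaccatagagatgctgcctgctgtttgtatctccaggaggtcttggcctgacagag
Prlr, chr15:10223656-10223955, plus strand: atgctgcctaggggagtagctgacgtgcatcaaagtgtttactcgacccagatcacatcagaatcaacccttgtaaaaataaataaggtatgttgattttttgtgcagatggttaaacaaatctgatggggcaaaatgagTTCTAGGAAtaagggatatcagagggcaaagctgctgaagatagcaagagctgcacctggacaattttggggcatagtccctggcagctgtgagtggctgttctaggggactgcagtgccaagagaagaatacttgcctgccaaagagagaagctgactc
Cish, chr9:107296409-107296708, plus strand: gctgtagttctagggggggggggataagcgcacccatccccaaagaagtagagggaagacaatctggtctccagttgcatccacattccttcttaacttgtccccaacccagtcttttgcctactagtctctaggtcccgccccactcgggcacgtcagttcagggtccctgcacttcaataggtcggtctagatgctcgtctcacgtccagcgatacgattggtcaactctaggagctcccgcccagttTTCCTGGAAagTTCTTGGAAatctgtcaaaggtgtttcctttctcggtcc

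The Igfbp2 window shown, 1 of 2, held GCGTG cores starting 155 and 132 bases before the start, and the other held 1 core 3 bases before its start. The Ghr window shown, 1 of 2, held cores 218, 75 and 72 bases before the start, the last pair overlapping in CACGCGTG. The other Ghr window held 1 core 156 bases before its start. In the Prlr window shown, 1 of 3, a STAT5-type palindrome began 110 bases before the start, and the other Prlr windows held neither motif. In the only Cish window 2 such palindromes lay at bases 1 and 12 after the start, separated by 2 bases. Over all 16 windows, 3 of the 9 genes had a STAT5-type palindrome (Cish, Igfals and Prlr) and 5 of 9 had a GCGTG core (Ghr, Stat5b, Igf1, Igfbp1 and Igfbp2), where 9.55% and 35.2% of all 27025 genes with a window had at least 1. These shares are not like for like, because all 27025 genes had 32851 windows and the 9 axis genes had more windows per gene. Of all 32851 windows 8.3% held the palindrome and 32.4% a core. Igfbp4, which also fell, had neither in its 1 window. A match in these letters is a description and not a binding site.

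At the high doses 4 of the 10 genes fell and none rose. Igfbp2, an IGF binding protein gene, fell 5.13-fold at 30 µg/kg, Ghr fell 2.35-fold, Igfbp4 fell 1.56-fold and Prlr fell 1.4-fold. The other 6 genes (Stat5b, Socs2, Cish, Igf1, Igfals and Igfbp1) did not pass the test at any dose. The first doses with calls were 3 µg/kg for Igfbp2 and Ghr, 10 µg/kg for Igfbp4 and 30 µg/kg for Prlr, where a call is an adjusted p under 0.05 against vehicle in edgeR's quasi-likelihood test with Benjamini-Hochberg adjustment over all 17464 genes.

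Against this stood the background of all tested genes. At each of the 5 doses from 0.01 to 1 µg/kg 0 of 10 axis genes were called, where in that order 0.0%, 0.0573%, 0.0229%, 0.464% and 1.76% of all genes were. At an unadjusted p under 0.05 the counts at these doses were 1, 3, 0, 4 and 4 of 10 (edgeR). The share of all genes at that unadjusted cut is not given here, so these counts are not by themselves a result about the axis. DESeq2 also called 0 of 10 at each of these doses. At 3 µg/kg 2 of 10 were called against 7.54% of all genes (3.2% lower), at 10 µg/kg 3 of 10 against 15.9% (7.47% lower), and at 30 µg/kg 4 of 10 against 29.6% (14.1% lower). Read against the background over either direction, the count at 30 µg/kg is not by itself a result about the axis, and the 4 genes were all on the lower side. With a fold change of at least 2 as well, 2 of 10 were called at 30 µg/kg (Igfbp2 and Ghr) against 11.4% of all genes. The median log2 fold change of the 10 genes was -0.31 at 30 µg/kg, beside 0.02 for all tested genes.

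**Figure D1:**
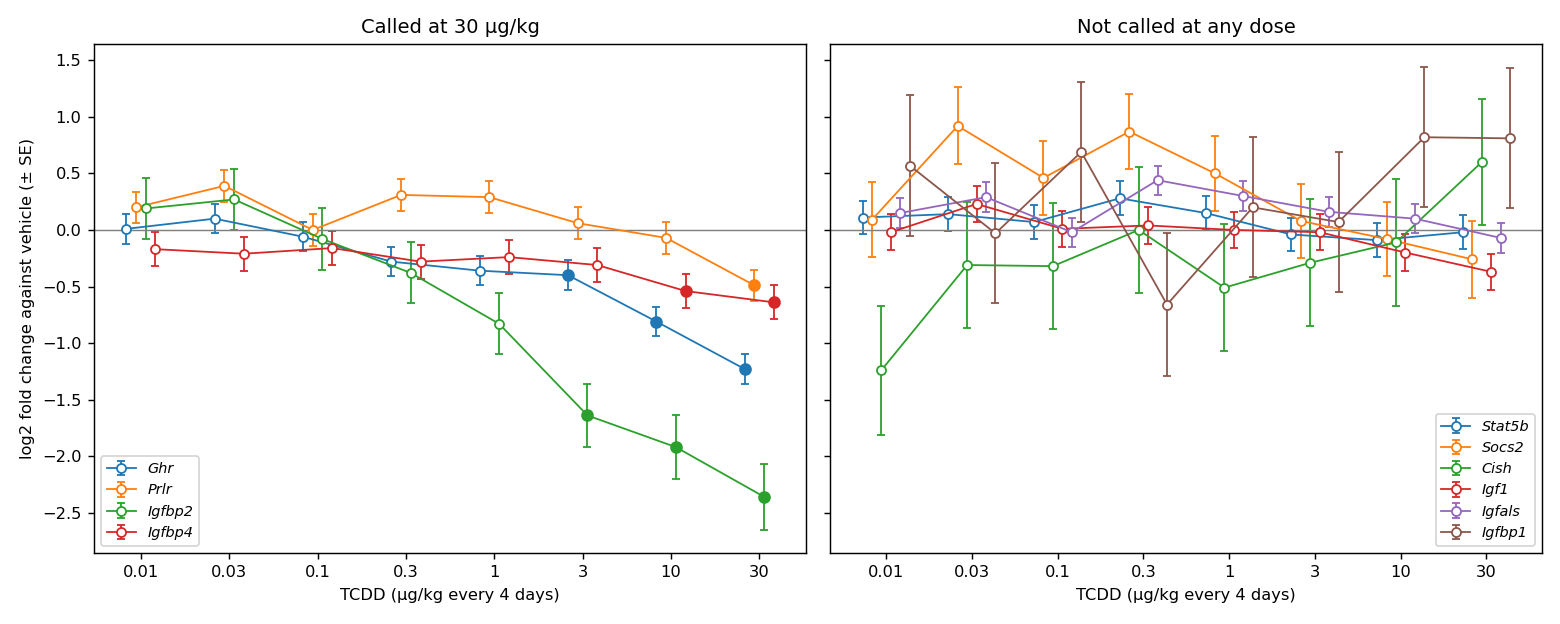
Log2 fold change of each axis gene against vehicle (± SE, edgeR fit of 45 livers) at each TCDD dose in µg/kg, with the 4 genes called at 30 µg/kg on the left and the 6 never called on the right; filled points passed adjusted p under 0.05. Igfbp2 went down to -2.36 and Ghr to -1.23, while the error bars of Igfbp1 and Cish span more than those of the other genes.

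Between neighbouring doses 0 of 10 genes were called in any of the 7 steps, where 0.0%, 0.0115%, 0.0458%, 0.115%, 0.178%, 0.784% and 0.613% of all genes were (edgeR; the counts at an unadjusted p under 0.05 were 1, 2, 3, 0, 1, 1 and 2). For the unadjusted step counts too the share of all genes is not given, so they are not by themselves a result. No single step passed for a gene that fell against vehicle. The step from 3 to 10 µg/kg for Ghr was -0.42 ± 0.13 (log2, SE; edgeR adjusted p = 0.135) and the step from 10 to 30 µg/kg was again -0.42 ± 0.13 (edgeR adjusted p = 0.141), which became -0.57 with an adjusted p of 0.00511 when replicate 4 of the 30 µg/kg group was left out. For Igfbp2 the steepest step was from 1 to 3 µg/kg, at -0.80 ± 0.27 (edgeR adjusted p = 0.446). The edgeR F test over all 9 groups together called 6 of 10 genes against 28.8% of all genes: Ghr, Igfbp2, Prlr, Igfbp4, Socs2 and Igfals.

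**Figure D2:**
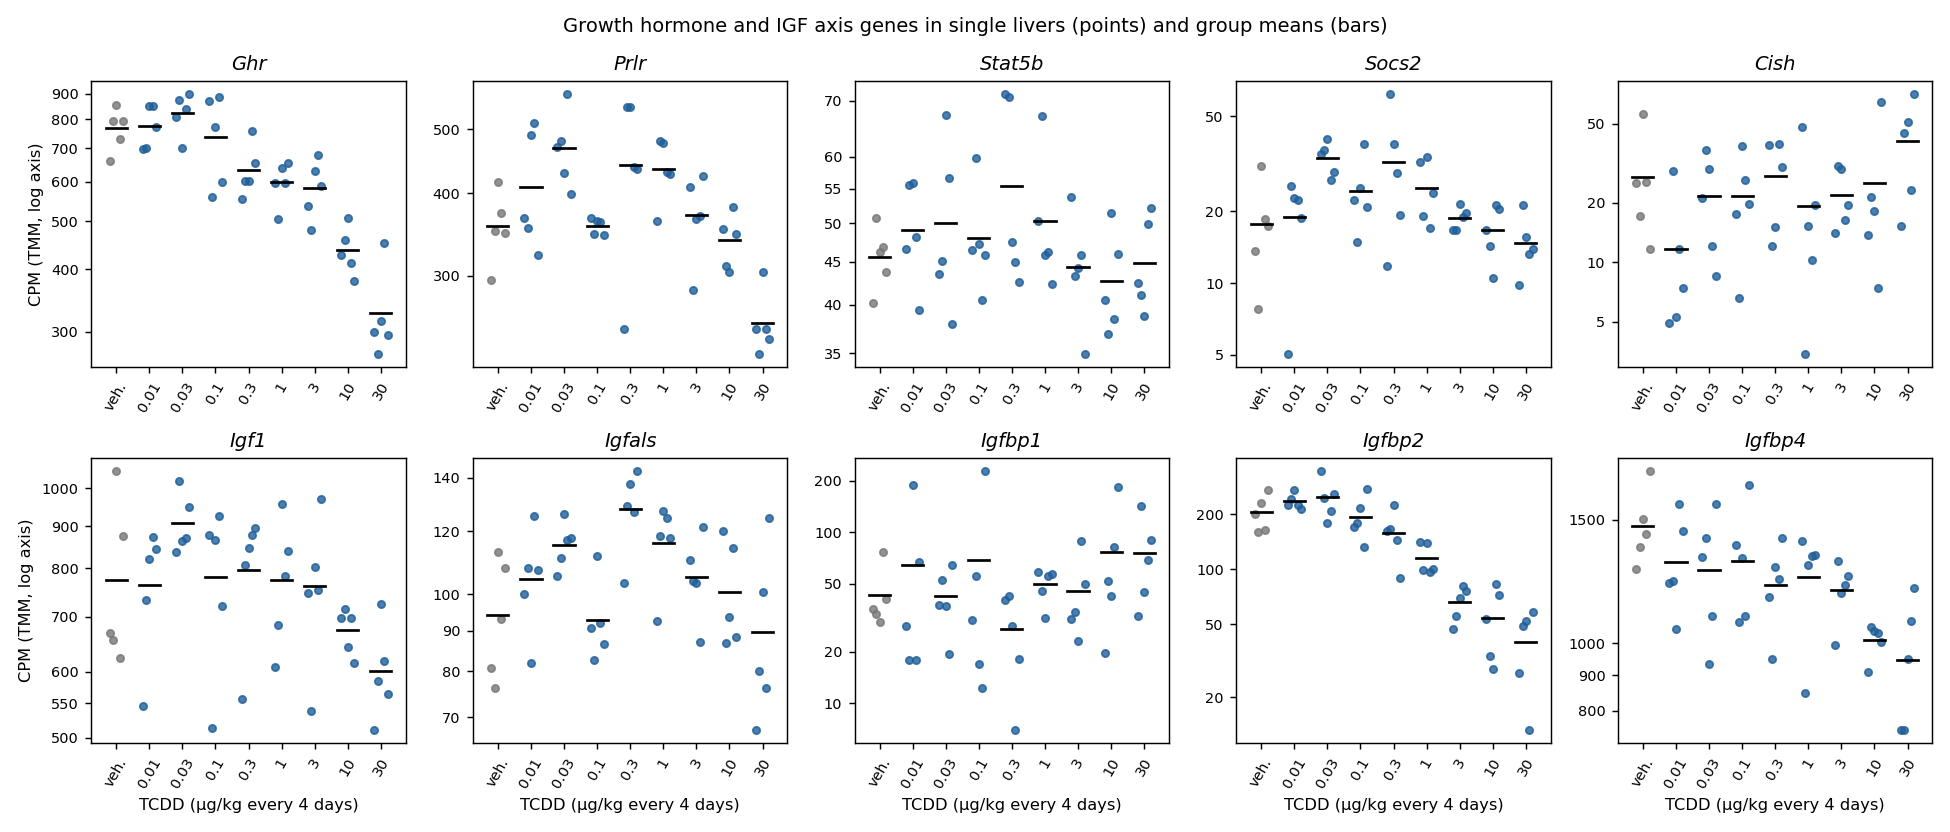
CPM (TMM scaled, log axis) of the 10 axis genes in single livers (points, 5 per group, vehicle in grey) and group means (bars) by TCDD dose in µg/kg. All 5 livers at 30 µg/kg lie below all vehicle livers for Ghr, Igfbp2 and Igfbp4, and Igfbp1 and Cish have the largest residual SD within groups of the 10, 1.03 and 0.96 on the log2 scale.

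Ghr (ENSMUSG00000055737, chr15:3317760-3583492, minus strand, GRCm38) encodes the growth hormone receptor. Its levels in the vehicle livers were 660.3, 794, 854, 732 and 795 CPM. At 1 µg/kg they were 597, 504, 638, 596 and 653 CPM, and the groups did not overlap, although the change of -0.36 ± 0.13 (log2, SE) was not called (edgeR adjusted p = 0.158). At 3 µg/kg the levels were 537, 480.4, 631, 679 and 589 CPM, which overlapped vehicle, with a change of -0.40 ± 0.13 (edgeR adjusted p = 0.0438).
That call had the highest adjusted p of all calls in the axis. It was lost with library size alone in place of TMM (-0.30, adjusted p = 0.0952), with adjustment over all doses (adjusted p = 0.0514), and in 8 of 10 fits that left out 1 liver, all except those without vehicle replicate 1 or 3 µg/kg replicate 4 (adjusted p from 0.0287 to 0.12 over the 10, edgeR). At 10 µg/kg the Ghr levels were 428, 458, 508, 413 and 379 CPM and the fall was 1.75-fold (-0.81 ± 0.13, edgeR adjusted p = 6.06e-06). At 30 µg/kg they were 299, 271, 315, 452 and 295 CPM, with replicate 4 apart from the other 4 livers, and the fall was 2.35-fold (-1.23 ± 0.13, edgeR adjusted p = 3.03e-10). Both groups lay wholly below the vehicle livers.

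Prlr (ENSMUSG00000005268, chr15:10177238-10349180, plus strand), the prolactin receptor gene, lies 6.59 Mb from Ghr on the same chromosome. Its dose course was not one-directional. The vehicle livers had 296, 351, 415, 373 and 348 CPM, and at 0.03 µg/kg the levels were 471, 479.6, 429, 565 and 399 CPM, a difference of 0.39 ± 0.14 (log2, SE) that was not called (edgeR adjusted p = 0.262). The livers at 30 µg/kg had 249, 229, 304, 249.5 and 240.4 CPM. These were the lowest group of the series for this gene, and only 1 liver at 30 µg/kg overlapped the lowest vehicle liver. The fall was 1.4-fold (-0.49 ± 0.14, edgeR adjusted p = 0.00732). With library size alone it was -0.27 and not called (adjusted p = 0.13), a scaling that moved the median of all genes by 0.232 on the log2 scale at 30 µg/kg, by 0.144 at 10 and by 0.103 at 3 µg/kg. Of the 15339 exon bases of Prlr, 203 are shared with the gene model Gm21973, which had 0 reads.

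Stat5b (ENSMUSG00000020919, chr11:100780731-100850724, minus strand), the transcription factor gene of the pathway, had group means from 42.7 ± 5.99 CPM at 10 µg/kg to 55.4 ± 14.3 CPM at 0.3 µg/kg (SD, n = 5). Vehicle livers averaged 45.5 ± 3.92 and livers at 30 µg/kg 44.9 ± 5.82 CPM. The difference at 30 µg/kg was -0.02 ± 0.15 (95% interval -0.32 to 0.27, edgeR adjusted p = 0.928), and with library size alone it was 0.19. Stat5a, the paralogous gene 8.6 kb away, was at 12.1 ± 1.58 CPM in vehicle and 12.3 ± 1.5 CPM at 30 µg/kg, and the counting of reads in stretches identical between the paralogs is uncertain.

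Socs2 and Cish encode feedback inhibitors of receptor signalling. Socs2 (ENSMUSG00000020027, chr10:95385362-95417180, minus strand) was 13.7, 7.82, 30.9, 18.6 and 17.3 CPM in vehicle livers. It was higher on average at 0.03 µg/kg, where the levels were 34.7, 36.1, 40.2, 27 and 29.4 CPM, and lower at 30 µg/kg, where they were 9.78, 21.2, 15.6, 13.2 and 13.9 CPM. Neither difference from vehicle was called: the change at 0.03 µg/kg was 0.92 ± 0.34 (log2, SE; edgeR adjusted p = 0.263) and that at 30 µg/kg was -0.26 ± 0.34 (95% interval -0.92 to 0.40, edgeR adjusted p = 0.605). The latter turned to 0.04 without vehicle replicate 3, which had the highest vehicle level. The F test over all groups called Socs2 (edgeR adjusted p = 0.0221), with group means from 14.7 ± 4.18 CPM at 30 to 33.5 ± 5.29 CPM at 0.03 µg/kg.

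Cish (ENSMUSG00000032578, chr9:107296026-107302784, plus strand) was among the most variable genes of its expression level. Within a single group its highest liver exceeded its lowest by up to 13.9-fold (1 µg/kg, 3.45 to 47.98 CPM). Vehicle livers had 25.1, 17.1, 56, 25.5 and 11.6 CPM and livers at 30 µg/kg 15.2, 44.7, 51.3, 23.2 and 70.8 CPM. The groups overlapped, and the difference of 0.60 ± 0.56 (log2, SE; 95% interval -0.49 to 1.69) was not called (edgeR adjusted p = 0.453). On 740.0 of its 6419 exon bases (11.5%) Cish overlaps the opposite-strand models Gm17040 and Gm17041, and the counting is not stated to use strand, so its level is uncertain to that extent.

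Igf1 (ENSMUSG00000020053, chr10:87858265-87937042, plus strand), the gene of the growth-promoting hormone itself, was 668, 656, 1050.0, 623 and 875 CPM in vehicle livers. The livers at 30 µg/kg had 510.3, 586, 726, 619 and 565 CPM. Between vehicle and 30 µg/kg the lowest livers were at 30 µg/kg, but 3 of the vehicle livers lay within the range of the 30 µg/kg livers. Single livers at low doses also lay in the low part of that range, with 514 CPM in 0.1 µg/kg replicate 2 and 546 CPM in 0.01 µg/kg replicate 1. The difference was -0.37 ± 0.16 (log2, SE; 95% interval -0.67 to -0.06) with an unadjusted p of 0.0242, and it was not called (edgeR adjusted p = 0.0732). It sat next to the threshold: it was called without vehicle replicate 4 (-0.43, adjusted p = 0.0447), without 30 µg/kg replicate 3 (-0.44, adjusted p = 0.0421) and without 0.1 µg/kg replicate 2 (-0.38, adjusted p = 0.0435), while without vehicle replicate 3 it was -0.23 (adjusted p = 0.297, edgeR). From 0.01 to 3 µg/kg the group means ran from 762 to 909 CPM, beside 774 ± 183 CPM in vehicle, 673 ± 42.2 at 10 and 601 ± 80.05 at 30 µg/kg (SD, n = 5).

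Igfals (ENSMUSG00000046070, chr17:24865997-24882010, plus strand) encodes the acid-labile subunit that holds IGF1 in the circulating complex. Its group means had no steady course with dose: 94.1 ± 16.2 CPM in vehicle, 115 ± 7.78 at 0.03, 92.7 ± 11.2 at 0.1, 128 ± 15.2 at 0.3 and 89.7 ± 22.9 CPM at 30 µg/kg (SD, n = 5). The highest group was 0.3 µg/kg, with 103, 129, 138, 127 and 143 CPM. Its difference from vehicle was 0.44 ± 0.13 (log2, SE) and was not called within that dose (edgeR adjusted p = 0.163), though it was called when p-values were adjusted over all doses together (adjusted p = 0.0376). At 30 µg/kg the difference was -0.07 ± 0.13 (95% interval -0.33 to 0.19, edgeR adjusted p = 0.74), or 0.14 with library size alone. The F test over all groups called Igfals (edgeR adjusted p = 0.0222).

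The IGF binding proteins hold IGFs in plasma and tissue and limit or prolong their action. Igfbp2 (ENSMUSG00000039323, chr1:72824503-72852474, plus strand) had the largest change of the axis. Vehicle livers had 201, 159, 230.3, 164 and 269.9 CPM. At 1 µg/kg the levels were 140.4, 98.6, 139.8, 96.8 and 100 CPM, all below the vehicle livers, with a change of -0.83 ± 0.27 (log2, SE; edgeR adjusted p = 0.125, or 0.00907 with only those 10 livers in the fit). At that dose 2 of the 10 axis genes (Ghr and Igfbp2) lay below vehicle without overlap, where 2.0% of all genes did.
At 3 µg/kg Igfbp2 was 47.3, 55.4, 70.1, 80.9 and 75.9 CPM, a 3.11-fold fall (-1.64 ± 0.28, edgeR adjusted p = 6.86e-05), and was the 1 axis gene below vehicle without overlap at that dose, where 3.36% of all genes were. At 10 µg/kg it was 53.3, 33.7, 28.6, 82.7 and 72.5 CPM, a 3.77-fold fall (-1.92 ± 0.28, edgeR adjusted p = 1.92e-06). From 0.03 µg/kg upward each group mean was lower than the one before, from 247 to 39.97 CPM. At 30 µg/kg the livers had 27.4, 49, 51.9, 13.3 and 58.3 CPM, a 5.13-fold fall (-2.36 ± 0.29, edgeR adjusted p = 1.56e-08), with replicate 4 lowest. That same liver had the highest Ghr level of its group.

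Igfbp4 (ENSMUSG00000017493, chr11:99041244-99054392, plus strand) was the most abundant binding protein mRNA. The vehicle livers had 1277, 1370.0, 1505, 1432 and 1764 CPM. At 10 µg/kg the levels were 910.3, 1055, 1042, 1034 and 1004 CPM, a 1.46-fold fall (-0.54 ± 0.15, log2, SE; edgeR adjusted p = 0.00765). The livers at 30 µg/kg had 751, 750.5, 948, 1077 and 1199 CPM, a 1.56-fold fall (-0.64 ± 0.15, edgeR adjusted p = 0.000796). In both groups every liver was below every vehicle liver. At 10 and at 30 µg/kg 3 of the 10 axis genes (Ghr, Igfbp2 and Igfbp4) were lower without overlap, where 6.13% and 9.57% of all genes were.

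Igfbp1 (ENSMUSG00000020429, chr11:7197782-7202546, plus strand), a binding protein gene known to be raised by fasting and lowered by insulin, was higher on average at 10 and 30 µg/kg and was not called at any dose. Vehicle livers had 35.5, 33.2, 29.8, 76.6 and 40.8 CPM, and livers at 30 µg/kg 32.4, 144, 44.5, 69.2 and 90.3 CPM. The groups overlapped, and the difference was 0.81 ± 0.62 (log2, SE; 95% interval -0.40 to 2.03, edgeR adjusted p = 0.348). Within the 0.1 µg/kg group its livers ran from 12.3 to 230 CPM, an 18.7-fold range among mice of 1 dose. The mice were fed freely per the study's methods, and no time since feeding is given in the sources used here.

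Scaled to exon length, the family of 7 binding protein mRNAs (Igfbp1 to Igfbp7) summed to 510 ± 69.0 CPM per kb of exon in vehicle and 335 ± 61.2 at 30 µg/kg (SD, n = 5). Igfbp4 held the largest share, with 65.3 ± 2.4% in vehicle and 64.1 ± 8.03% at 30 µg/kg. The share of Igfbp2 was 21.6 ± 2.86% in vehicle, 9.27 ± 1.4% at 3 and 6.42 ± 2.62% at 30 µg/kg. Igfbp1 had 5.61 ± 2.56% in vehicle and 14.6 ± 7.91% at 30 µg/kg, and Igfbp7 5.24 ± 0.742% and 10.9 ± 1.64%. In order of mean share Igfbp2 thus went from second in vehicle to behind Igfbp1 and Igfbp7 at 30 µg/kg. These shares are descriptions with no test of their own. Igfbp3, which lies 3.5 kb from Igfbp1 and encodes the main carrier of IGF1 in plasma, was 20.4 ± 4.81 CPM in vehicle and 26.3 ± 3.04 CPM at 30 µg/kg (edgeR adjusted p = 0.213). It was called higher at 3 µg/kg, with 33.7 ± 7.24 CPM (1.65-fold, edgeR adjusted p = 0.0325), at 10 µg/kg, with 32.5 ± 4.23 CPM (1.59-fold, edgeR adjusted p = 0.0285), and in the F test over all groups (edgeR adjusted p = 0.0404). Igfbp5, 5.5 kb from Igfbp2, was 25.7 ± 4.81 and 23.7 ± 8.63 CPM (edgeR adjusted p = 0.849).

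**Figure D3:**
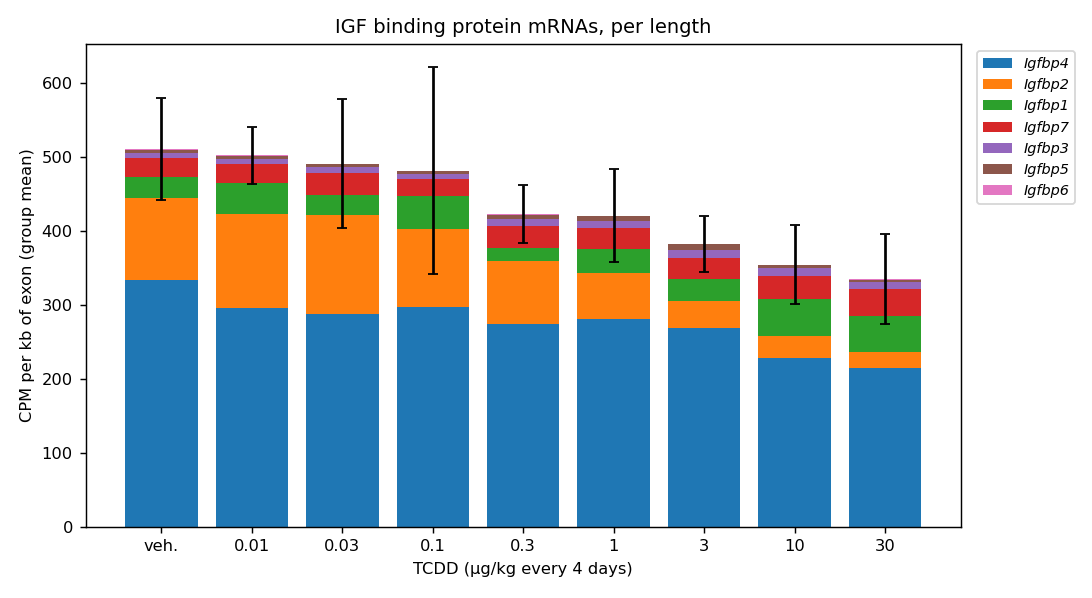
Group means of the 7 IGF binding protein mRNAs in CPM per kb of exon, stacked, by TCDD dose in µg/kg (5 livers per group; error bars are the SD of the sum). The sum goes from 510 in vehicle to 335 at 30 µg/kg, and the Igfbp2 part from 111 to 21.6.

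In vehicle livers the order of the 10 genes by level per exon length was Igfbp4 (333 ± 41.8 CPM per kb, SD, n = 5), Igfbp2 (111 ± 25.2), Ghr (84.7 ± 8.15), Igf1 (78.2 ± 18.5), Igfals (29.7 ± 5.1), Igfbp1 (28.3 ± 12.5), Prlr (23.2 ± 2.83), Stat5b (8.22 ± 0.707), Cish (4.22 ± 2.67) and Socs2 (1.85 ± 0.891). Neighbours in this order overlapped between livers, except Igfbp4 with Igfbp2, Igf1 with Igfals, and Prlr with Stat5b. Exon length here is the union of all annotated exons, which exceeds the mRNA of genes with many isoforms.

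The spread between mice of the same dose divided the axis as well. The residual SD within dose groups was 1.03 on the log2 scale for Igfbp1, 0.96 for Cish, 0.59 for Socs2 and 0.48 for Igfbp2, which was more than 99.5%, 99.5%, 97.6% and 95.9% of tested genes of like read count. For Ghr, Prlr, Stat5b, Igf1, Igfals and Igfbp4 it was 0.20 to 0.26. A change of a given size was therefore harder to call in the feedback genes and in Igfbp1 than in the receptors. Single livers stood low or high across several genes: replicate 2 of the 0.1 µg/kg group was the lowest of its group for 6 of 10 (Ghr, Socs2, Cish, Igf1, Igfals and Igfbp4), and vehicle replicate 3 was the highest of its group for 6 (Ghr, Prlr, Socs2, Cish, Igf1 and Igfals).

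Apart from Socs1, which had few reads, the called genes that act between receptor and nucleus showed small changes in both directions. Of 19 further growth hormone and prolactin signalling genes, 4 rose and 3 fell at 30 µg/kg, and the median log2 fold change was 0.02, equal to that of all genes. The 7 of 19 that were called stand beside 29.6% of all genes. Ptpn1 and Ptpn6, phosphatase genes, rose 1.56-fold and 1.34-fold (0.65 ± 0.17, adjusted p = 0.00282, and 0.43 ± 0.14, adjusted p = 0.0178, edgeR), and the adaptor gene Grb2 rose 1.2-fold (edgeR adjusted p = 0.0273). The fourth, Socs1, had a mean of 7.7 reads and levels of 0 to 0.308 CPM in vehicle and 0.111 to 2.08 CPM at 30 µg/kg (edgeR adjusted p = 0.0105), and is named because it completes the count. The phosphatase gene Ptpn2 fell 1.38-fold (-0.47 ± 0.12), the adaptor gene Shc1 fell 1.33-fold (-0.42 ± 0.12) and Socs4 fell 1.29-fold (-0.37 ± 0.14), with edgeR adjusted p of 0.00297, 0.00524 and 0.0349. With library size alone none of the 19 fell. Jak2, the kinase of the receptor, was 21.9 ± 2.05 CPM in vehicle and 18.7 ± 2.14 CPM at 30 µg/kg (edgeR adjusted p = 0.0621).

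Of 15 detected genes of IGF ligands, receptors and binding (16 listed), 2 rose and 2 fell at 30 µg/kg, with a median log2 fold change of 0.37 beside 0.02 for all genes. The 4 of 15 that were called stand beside 29.6% of all genes. Igf2, Igf1r, Igfbp6, Pappa, Stc1 and Stc2 averaged below 1 CPM both in vehicle and at 30 µg/kg. These genes near the floor enter the median, so no shift of the list is read from it. Grb10, an adaptor that restrains insulin and IGF1 receptors, rose 2.17-fold from 6.21 ± 0.949 to 13.5 ± 3.31 CPM (edgeR adjusted p = 1.06e-06). Its relative Grb14 fell 1.93-fold from 46.5 ± 3.25 to 24.1 ± 2.12 CPM (edgeR adjusted p = 1.54e-06). Igf2r, the receptor that clears IGF2, rose 1.44-fold (edgeR adjusted p = 0.00479) and Insr, the insulin receptor gene, fell 1.33-fold (edgeR adjusted p = 0.00775). Igf1r, the receptor of IGF1, was below 1 CPM in every vehicle and 30 µg/kg liver. With library size alone 5 rose and 1 fell.

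Transcription factors known to respond to growth hormone were a further list. Of 11, 1 fell and none rose at 30 µg/kg, beside 29.6% of all genes called, with a median of -0.25. The one that fell was Cebpa, a factor of hepatocyte identity, from 235 ± 41.3 to 126 ± 17.5 CPM (1.87-fold, -0.90 ± 0.16, edgeR adjusted p = 1.9e-05). Cux2, a female-biased factor, was 13.6 to 58.7 CPM in vehicle and 7.75 to 24.6 CPM at 30 µg/kg and was not called (-1.06 ± 0.62, edgeR adjusted p = 0.203). Bcl6, a male-biased repressor, was 11.8 ± 4.8 and 9.81 ± 5.59 CPM (edgeR adjusted p = 0.765).

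Among 24 genes known as female-biased in mouse liver, 11 fell and 2 rose at 30 µg/kg, with a median log2 fold change of -0.80 beside 0.02 for all genes. Of all genes 29.6% were called at this dose and 14.1% were called lower. The sulfotransferase gene Sult3a1 fell 54.1-fold, from 87.3 to 171 CPM in vehicle to 0.401 to 8.41 CPM (edgeR adjusted p = 2.22e-11). Ntrk2 fell 8.67-fold and the P450 gene Cyp3a16 fell 8.39-fold (edgeR adjusted p = 0.000512 and 0.0122), the latter from a vehicle range of 3.82 to 34.5 CPM. Prom1 rose 5.5-fold, from 5.34 ± 3.14 to 29.04 ± 12.8 CPM (edgeR adjusted p = 4.33e-05). The list therefore did not move as 1 group. By dose, none of the 24 was called up to 0.3 µg/kg, 3 rose and none fell at 1 µg/kg, 3 rose and 4 fell at 3 µg/kg, and 2 rose and 8 fell at 10 µg/kg. Of all genes at most 0.464% were called up to 0.3 µg/kg, and 1.76%, 7.54% and 15.9% at 1, 3 and 10 µg/kg.

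Of 18 detected male-biased genes (19 listed), 4 rose and 5 fell at 30 µg/kg, beside 29.6% of all genes called, with a median of 0.09. From 1 to 10 µg/kg more rose than fell, as 4 rose and none fell at 1 µg/kg, 6 rose and none fell at 3 µg/kg, and 3 rose and 2 fell at 10 µg/kg. Of all genes 1.76%, 7.54% and 15.9% were called at these doses, in that order. Cyp2d9 rose 4.09-fold, Gstp1 rose 2.54-fold and the complement gene C6 rose 2.29-fold (edgeR adjusted p = 2.9e-07, 9.2e-09 and 0.00709). The organic anion transporter gene Slco1a1 fell 111-fold, from 7.43 to 188 CPM in vehicle to 0.0902 to 1.34 CPM (edgeR adjusted p = 6.46e-06). The elongase gene Elovl3 fell 8.51-fold, from 0.805 to 3.33 CPM in vehicle to 0.0 to 0.39 CPM, near the floor (edgeR adjusted p = 0.00146). Serpina1e fell 7.89-fold (edgeR adjusted p = 0.00254). Cyp4a12a, Cyp4a12b, Hsd3b5, Cspg5, Slc15a5 and Ugt2b38 averaged below 1 CPM in vehicle and at 30 µg/kg, and they enter the counts and the median. Several genes of this list belong to families of near-identical genes, for which the counting of reads between copies is uncertain. At 30 µg/kg neither sex-biased list thus went in 1 direction. At the same dose 5 of 9 stellate, 6 of 8 endothelial, 3 of 9 macrophage and 3 of 8 lymphocyte markers rose. Of all genes 29.6% were called in either direction. A part of these cells in the sex-biased lists was not tested.

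**Figure D4:**
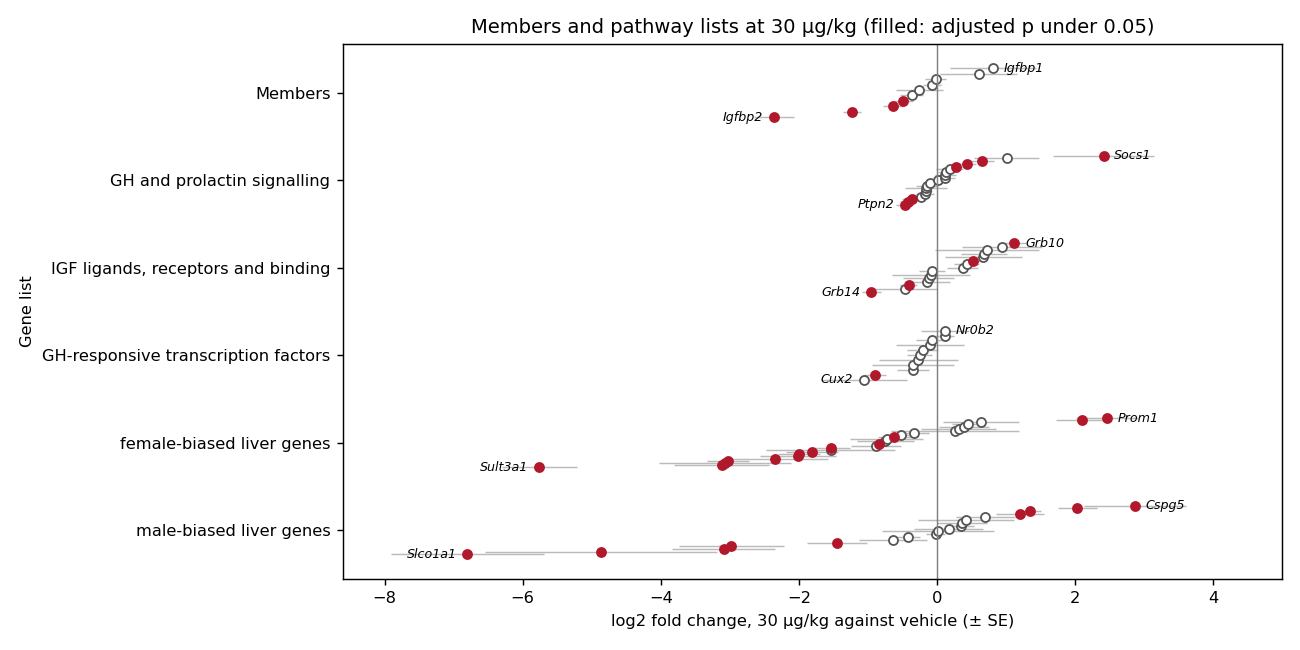
Log2 fold change at 30 µg/kg against vehicle (± SE) of the 10 axis genes (Members) and of the genes in 5 related lists, 1 point per gene, with filled points past adjusted p under 0.05 (edgeR). The 24 female-biased genes reach from -5.76 to 2.46 and the 18 male-biased genes from -6.80 to 2.86. The 19 signalling genes lie between -0.47 and 2.41, the upper end being Socs1, which had few reads.

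Independently of dose, Igf1 varied together with several genes of the axis among mice of the same group. Correlations of log2 CPM were taken over the 45 livers after subtracting group means, for all 45 pairs of the 10 genes, with a 2-sided permutation test within groups (100000 resamples) and Benjamini-Hochberg adjustment over the pairs. By r 6 pairs passed, 5 of them with Igf1. Ghr and Igf1 had r = 0.61 (p = 7e-05, adjusted 0.00315, permutation) and rho = 0.66 (adjusted p = 0.0018, permutation), with the same sign in 9 of 9 groups. Socs2 and Igf1 had r = 0.57 and rho = 0.48 (adjusted p = 0.0081 and 0.0212, permutation), and Prlr and Igf1 r = 0.55 and rho = 0.50 (adjusted p = 0.0081 and 0.0107, permutation). At a given dose, livers with more of either receptor mRNA had more Igf1 mRNA.

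Igfals and Igf1, both encoding parts of the circulating complex, had r = 0.51 and rho = 0.56 (adjusted p = 0.00922 and 0.00787, permutation). Stat5b ran against Igf1 with r = -0.46 and rho = -0.50 (adjusted p = 0.0208 and 0.0105, permutation), again with 1 sign in 9 of 9 groups. Stat5b and Igfbp4 had r = -0.50 (adjusted p = 0.0208, permutation), while rho was -0.42 (adjusted p = 0.0706, permutation). Leaving out the 2 livers farthest from the median of the first gene of each pair gave r = 0.61 for Ghr with Igf1, 0.43 for Socs2 with Igf1, 0.40 for Prlr with Igf1, 0.46 for Igf1 with Igfals, -0.46 for Stat5b with Igf1 and -0.36 for Stat5b with Igfbp4. Socs2 and Cish, both STAT5 targets, had r = 0.31 (adjusted p = 0.191, permutation), and Ghr and Prlr r = 0.25 (adjusted p = 0.211, permutation). Neither pair passed. Socs2 and Igfbp2 passed by rho alone, with rho = 0.45 and r = 0.33 (adjusted p = 0.0212 and 0.0997, permutation). Sequencing lane or pool is not in the labels, so a part of it in these correlations was not tested.

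**Figure D5:**
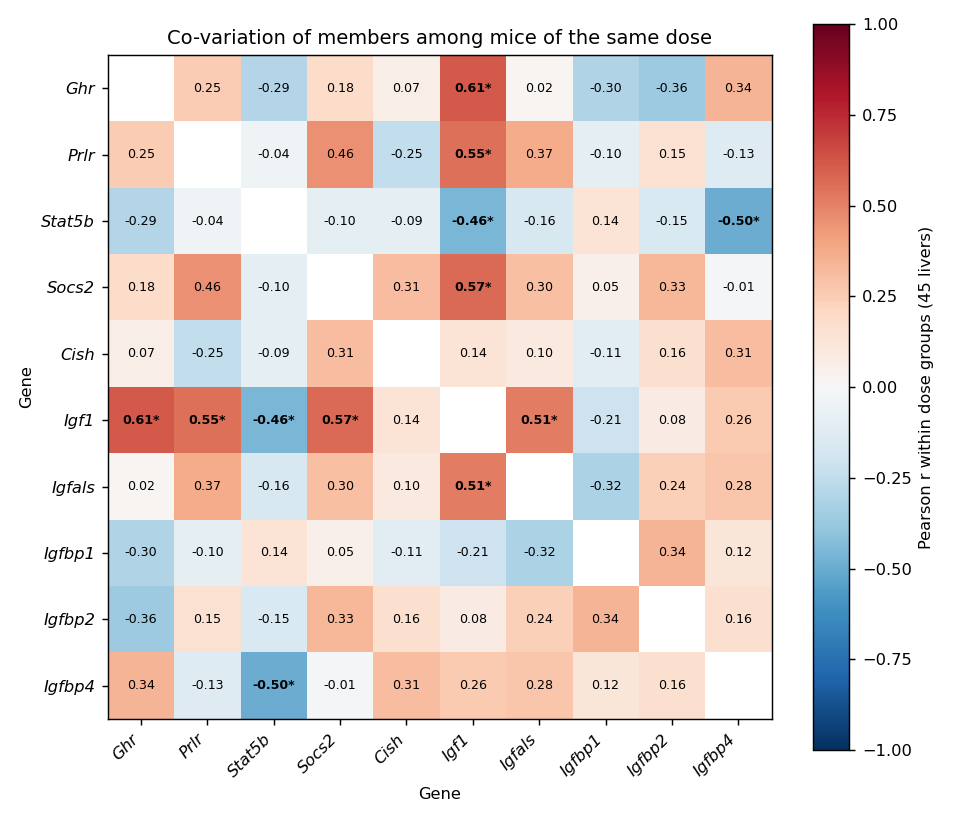
Pearson r of log2 CPM between the 10 axis genes over 45 livers after subtracting dose-group means; asterisks mark the 6 pairs whose r passed adjusted p under 0.05 (permutation within groups, 45 pairs). The row of Igf1 holds 5 of the 6, from 0.61 with Ghr to -0.46 with Stat5b.

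Over all 45 livers, dose differences included, the 3 genes most like each axis gene among 13609 were ranked by Pearson r of log2 CPM, as a description in which all points share dose and library. For Ghr they were Gm4788 (r = 0.95), Otc (0.94), a urea cycle enzyme gene, and Sult2a8 (0.93). For Igfbp2 they were Qpct (0.89), Nnt (0.88) and Atp6v0d2 (0.88), the last of which is on the female-biased list and fell 8.16-fold at 30 µg/kg. For Prlr they were Cyp2c69 (0.90), Cyp2c40 (0.87) and Cyp2g1 (0.83), all P450 genes. For Igfbp4 they were Chchd3 (0.86), Dgat2 (0.84) and Sult1a1 (0.84). Igf1 had Sh3bgrl (0.76), Dcun1d1 (0.75) and Kng1 (0.73). Socs2 had Gm9847 (0.76), Ugcg (0.75) and Igf1 itself (0.66), and Igfals had Cd276 (0.62), Prlr (0.59) and Aldh3b3 (0.59). Stat5b had Sgpl1 (0.79) and Loxl4 (0.78) among its 3. Cish had Phlda1 (0.74), Foxa2 (0.69) and Myc (0.69), and Igfbp1 had Adcy1 (0.59), Scarb1 (0.58) and Rbfox3 (0.57), the lowest values of the 10. The 4 genes that fell had the highest first-ranked r of the 10, from 0.86 to 0.95. Dose differences are part of these r values and many genes differ by dose. That order is thus partly set by the falls themselves and is not a separate result.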

How the data were processed

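Liver RNA of 45 female C57BL/6 mice was sequenced, and the authors deposited whole-number read counts per Ensembl gene for each liver, made per the labels and methods by alignment to GRCm38 (TopHat 1.4.1, SAMtools 0.1.19) and counting with HTSeq 0.6.1. The 5 summary rows without a gene were left out. Reads counted as no feature or ambiguous made up 10.7 to 18.42% of those reads and the reads on genes together. Symbols matched 37607 of 39179 identifiers. Counts were fitted in edgeR 4.0.16 (R 4.3.3) with TMM factors, 1 coefficient per dose group and quasi-likelihood F tests, with Benjamini-Hochberg adjustment within each comparison. The step was tested on simulated counts. Groups came from the labels, which give no batch. The 10 genes and the lists were chosen with earlier results of these data known. Named list genes are the up to 3 largest increases and decreases at 30 µg/kg among called genes with a mean of at least 10 reads, and named matches are the 3 highest correlations per gene. A list gene and a match that these rules pick are not reported here. Intervals and p-values cover the spread between 5 mice per group. DESeq2 1.42.0, other filters, scalings, adjustments and left-out livers were alternatives. Correlations used log2 CPM with a prior count of 2 (Python 3.11.15, numpy 2.4.6). Protein sequences were not used here.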

Additional observations from a re-analysis of the deposited data

Results flagged for a closer look

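In 5 of 90 groups of 5 livers (10 genes, 9 groups) 1 liver lay far from the other 4, its gap to the nearest exceeding Dixon's critical share of 0.71 of the range, both taken on log2 CPM. Chance alone flags about 1 in 20 such groups, so this number of flags is near what chance gives. On this scale each of the 5 was the lowest of its group. On CPM itself, a scale added after seeing the data, 1 liver stood apart in 10 groups, the highest in 7 and the lowest in 3, and 3 of the 10 are among the 5 on log2 CPM (Igf1 at 0.3 µg/kg, Igfals and Igfbp4 at 1 µg/kg). High livers on that scale include 230 CPM of Igfbp1 in replicate 5 at 0.1 µg/kg (the others 12.3 to 55.5), 76.6 CPM of Igfbp1 in vehicle replicate 4 (29.8 to 40.8), 64.5 CPM of Cish in replicate 5 at 10 µg/kg (7.39 to 21.2) and 453 CPM of Ghr in replicate 4 at 30 µg/kg (271 to 315).

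At 0.3 µg/kg replicate 1 had 249 CPM of Prlr, where the others had 435 to 541, and 556 CPM of Igf1, where the others had 809 to 895. The same liver was the lowest of its group for Ghr, Socs2 and Igfals too. At 0.01 µg/kg replicate 1 had 5.06 CPM of Socs2, where the others had 18.8 to 25.5. At 1 µg/kg replicate 1 had 92.5 CPM of Igfals, where the others had 118 to 127, and replicate 2 had 849 CPM of Igfbp4, where the others had 1293 to 1399.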

How the results depend on the processing

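Ghr at 10 and 30 µg/kg, Igfbp2 at 3, 10 and 30 µg/kg and Igfbp4 at 10 and 30 µg/kg kept direction and call under every alternative run (no count filter, filterByExpr, RLE size factors, library size alone, adjustment over all doses, 2 groups per fit, DESeq2, each liver left out). With adjustment over all doses the axis genes called were 1 at 0.3 µg/kg (Igfals) and 1 at 3 µg/kg (Igfbp2). With 2 groups per fit 1 was called at 1 µg/kg (Igfbp2), and with library size alone 1 at 3 µg/kg (Igfbp2). Leaving out 1 liver gave 1 to 2 at 3 µg/kg and 0 to 1 for the step from 10 to 30 µg/kg. The Prlr fall at 30 µg/kg lost its call with library size alone (-0.27), and the F test over all groups then missed Igfbp4. At 30 µg/kg Stat5b turned to 0.00 with filterByExpr and 0.19 with library size alone and ran from -0.08 to 0.03 with 1 liver left out. Igfals turned to 0.14 with library size alone and ran from -0.22 to 0.01, and Socs2 ran from -0.44 to 0.04. In the lists at 30 µg/kg, growth hormone signalling genes that rose were 2 with adjustment over all doses and 2 to 4 with 1 liver left out, the lowest without 30 µg/kg replicate 5, and those that fell were 0 with library size alone. Genes of the IGF list that rose were 5 with library size alone and 2 to 4 with 1 liver left out, the highest without vehicle replicate 5, and 1 fell with library size alone. Of the transcription factors 1 rose with library size alone and 3 fell with 2 groups per fit. Male-biased genes that fell were 3 to 6 with 1 liver left out, the lowest without 30 µg/kg replicate 3. Macrophage markers that rose were 0 with adjustment over all doses and 6 with 2 groups per fit, and 1 to 5 with 1 liver left out (lowest without 30 µg/kg replicate 2, highest without replicate 4). Stellate markers that rose were 8, lymphocyte markers 5 and hepatocyte markers 1 with library size alone. Library size alone also moved the median of all genes, as stated for Prlr. The share of all genes called under each alternative is not given here, and the cause of these shifts was not tested. All 6 correlated pairs passed with a prior count of 0.5 and with library size alone, where Prlr with Igfals passed as well (adjusted p = 0.0487, permutation). No paired analysis was possible because replicates are numbered in accession order and no label pairs mice across groups.

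The 5 mice per group limit what can be called in genes as variable as Igfbp1 and Cish. Lanes, pools and feeding times are not given in the labels used here, and mRNA levels say nothing of protein or of receptor signalling.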
